A study of Mus musculus with 4 samples.

Results

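Multipotent progenitors were taken as the cells with at least 2 unique molecular identifiers (UMIs, one per captured transcript) of Cd34 and at least 1 of Adgrl4, in a cell of at least 3070 UMIs in all. They also held no UMI of Dntt, Pf4, F13a1, Ms4a2, Cebpe or Klf1, which mark lymphoid, megakaryocytic, monocytic, basophil or mast cell, granulocytic and erythroid progenitors. Cells with UMIs of 3 or more of 8 genes typical of stem cells (Hlf, Mecom, Procr, Ly6a, Pdzk1ip1, Fgd5, Hoxb5 and Slamf1) were left out. The rule found 1430 of 11764 cells, 767 from the B-ALL environment and 663 from the PBS control.

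The cells came from the bone marrow of wild-type CD45.1 mice. Mice of the B-ALL environment had received 150000 tumor cells by tail vein, taken from a lymph node of 1 leukemic Cd45.2+/+Ebf1+/-Pax5+/- mouse (LN768), and mice of the PBS control had received PBS. After 3 weeks, KIT+Lin-CD45.2-CD45.1+ cells were sorted from both, a gate that keeps host cells, leaves out the CD45.2+ leukemia and selects on KIT protein in both groups. Libraries were made with the Chromium Single Cell 3′ kit, version 3. The labels name 2 samples per group and give no age, but the cells carry only a group prefix. The host cells chosen from the B-ALL environment and from the PBS control are called B-ALL members and PBS members below. Each group was 1 sample, and no difference below has a replicate check or a test. Intervals are exact 95% intervals that cover counting error only, not the spread between mice.

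Multipotent progenitors stand just below the self-renewing stem cell and still give rise to all blood lineages. In mice they are found among the KIT+ lineage-negative cells of the marrow, and they start to transcribe genes of their later lineages at low level while they lose the stem cell program. Infection, cytokines and leukemia in the marrow are known to reach these cells through receptors that signal through JAK kinases and STAT factors. Cd34, a sialomucin of the cell surface, and Adgrl4, an adhesion G protein-coupled receptor also known from endothelium, were used here to pick them.

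The members held 8200878 UMIs in the B-ALL environment and 6288479 in the PBS control. The median member held 9473 UMIs and 3664 genes in the B-ALL environment, and 8612 UMIs and 3506 genes in the PBS control. Over all cells, 190 cells of the B-ALL environment and 0 of the PBS control fell below the depth floor, and 18 cell barcodes occurred in both groups, with 4 members among their cells. A doublet caller marked 3 cells of the B-ALL environment and 6 of the PBS control, none of them a member, too few for the caller to have worked, so no cell was removed. No member held over 1% of its UMIs in globin or Igkc transcripts.

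Because these genes chose the members, their values describe the rule and are no result. Cd34 stood at 573 CPM (UMIs of the gene per 1000000 UMIs) in members of the B-ALL environment and 695 CPM in members of the PBS control, and Adgrl4 at 435 CPM in B-ALL and 525 CPM in PBS members. Members made up 13.5% of cells at or above the depth floor in the B-ALL environment (interval 12.6 to 14.4%) and 11.3% in the PBS control (10.5 to 12.1%). Just inside the Cd34 limit, 122 cells of the B-ALL environment and 52 of the PBS control held 2 UMIs. Just outside it, with all other conditions met, 124 cells of the B-ALL environment and 46 of the PBS control held 1 UMI. For Adgrl4, 102 cells of the B-ALL environment and 72 of the PBS control held 1 UMI and were members. With no Adgrl4 UMI, 72 cells of the B-ALL environment and 56 of the PBS control were not. The stem gene limit weighed unequally on the groups. With 2 stem genes detected, 324 cells of the B-ALL environment and 204 of the PBS control were members. With 3 of them, 306 cells of the B-ALL environment and 81 of the PBS control were not. In all, this condition alone left out 721 cells of the B-ALL environment and 118 of the PBS control. With fewer than 2 stem genes allowed, members were 7.78% of cells in the B-ALL environment and 7.80% in the PBS control, and with no such condition 26.1% in the B-ALL environment and 13.3% in the PBS control. Selected on the same genes, 42.2% of members of the B-ALL environment and 30.8% of the PBS control held 2 stem genes. None was found in 18.9% of B-ALL members and 26.5% of PBS members. Ly6a (Sca-1) was detected in 18.0% of members of the B-ALL environment and 8.30% of the PBS control, while Hlf was in 58.1% of B-ALL and 58.7% of PBS members and Mecom in 19.2% of B-ALL and 19.5% of PBS members.

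Genes outside the rule were used to describe the label. Since members and gene lists were chosen with earlier results of these data known, the levels of these genes are no check of it. Levels in members were set against those in all other cells of the same group, as log2 ratios of CPM plus 1. Because cells chosen on one set of counts differ in correlated genes by construction, these ratios are descriptive. Tespa1, a signalling protein known from thymocytes, was at 161 CPM in members of the B-ALL environment and 206 CPM in the PBS control, a log2 ratio over other cells of 1.47 in B-ALL and 1.45 in PBS members. Vldlr, a lipoprotein receptor, was at 64.4 CPM in B-ALL and 37.4 CPM in PBS members, with ratios of 1.02 in B-ALL and 1.72 in PBS members. Both named markers were higher in members than in all other cells together, in either group. The members did not stand above all sets of cells like them, however. The 20 genes listed for multipotent progenitors summed to 8488 CPM in B-ALL and 8773 CPM in PBS members. Cells with 3 or more stem genes that met the rest of the rule had a lower sum. It was 6129 CPM in the B-ALL environment and 7489 CPM in the PBS control. In cells with Dntt and Flt3, that sum was 9402 CPM in the B-ALL environment and 9518 CPM in the PBS control. That set was chosen in part on 1 of the listed genes. In cells with Cebpa and Ccl9, the sum was 9434 CPM in the B-ALL environment and 10254 CPM in the PBS control. That set did not leave out members with both genes. Flt3, the cytokine receptor that marks multipotent progenitors past the stem cell stage, had ratios of 0.72 in the B-ALL environment and 0.78 in the PBS control. Cd48, absent from most stem cells, had 0.86 in B-ALL and 0.70 in PBS members, and Cd27 had 0.69 in B-ALL and 0.92 in PBS members. Single genes of later lineages stood below the other cells. Gfi1b, a factor of erythroid and megakaryocytic cells, had -0.91 in B-ALL and -1.66 in PBS members, and Ms4a3, a gene of granulocyte-monocyte progenitors, had -1.15 in B-ALL and -1.28 in PBS members. Granulocyte-monocyte genes as a list were higher in the median member than in the median other cell, but lower in their summed level. They took 0.890% of UMIs in the median member and 0.513% in the median other cell of the B-ALL environment, and 1.04% in the median member and 0.687% in the median other cell of the PBS control. Their summed level was 12401 CPM in members and 13104 CPM in the other cells of the B-ALL environment, and 13419 CPM in members and 17594 CPM in the other cells of the PBS control. Cebpa, a factor that starts granulocyte and monocyte fate, had ratios of 0.82 in B-ALL and 0.49 in PBS members. On counts as deposited, Cebpa was detected in 44.7% of members of the B-ALL environment and 51.7% of the PBS control.

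Beside Tespa1, Vldlr, Socs3 and Ffar2, the highest genes over other cells by the smaller of the ratios in the 2 groups were Selp, Bpifc, Clec4e, Cd244a, Cxcr2 and Tmem71. Selp encodes P-selectin and had ratios of 1.36 in the B-ALL environment and 1.60 in the PBS control. Cxcr2, a chemokine receptor of myeloid cells, had 1.71 in B-ALL and 1.21 in PBS members. Clec4e, a lectin receptor, had 1.27 in B-ALL and 1.26 in PBS members, and Cd244a, a receptor of the SLAM family, 1.24 in B-ALL and 1.28 in PBS members. Of 20 genes listed for endothelial and stromal cells, 10 were in the matrix. Their sum was 185 CPM in members of the B-ALL environment and 178 CPM in the PBS control, of which Pecam1, also a gene of blood progenitors, gave 89.5 CPM in B-ALL and 101.7 CPM in PBS members. Cdh5 and Cldn5, which define endothelium, were not analysed here. On the map deposited by the authors, 32.8% of the 50 nearest cells around a member were members in the B-ALL environment, where members were 13.5% of cells, and 35.1% in the PBS control, where they were 11.3%. Cells with Cebpa and Ccl9 made up 20.9% of those neighbours in the B-ALL environment and 23% in the PBS control, against 10.4% of all cells in the B-ALL environment and 13.6% in the PBS control. The name multipotent progenitor is used below for cells that meet the rule. On the map they lay in one broad zone, with other kinds of cells among their neighbours.

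**Figure D1:**
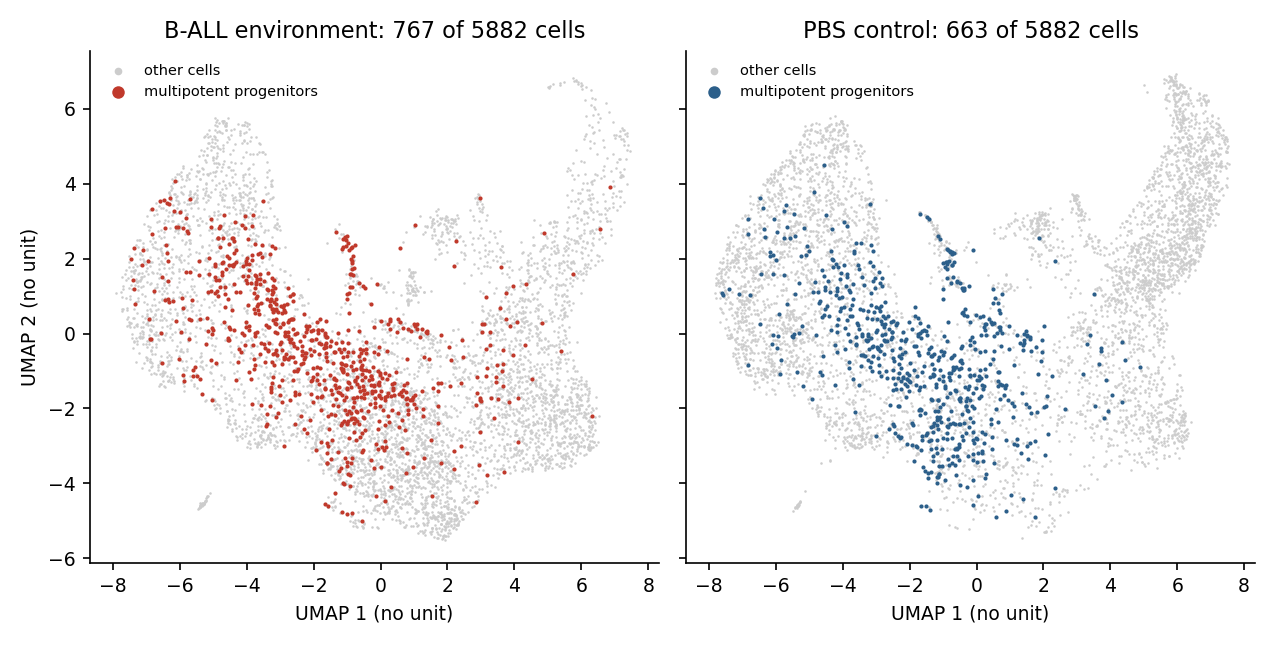
Position of the members (coloured) among all cells (grey) on the authors' UMAP, whose 2 axes have no unit, with the B-ALL environment on the left and the PBS control on the right. The 767 members of the B-ALL environment and the 663 of the PBS control lie mostly in one central zone, with scattered members elsewhere on the map.

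To ask how the B-ALL environment differed from the PBS control in these cells, UMIs were summed over the members of each group and folds were taken on the log2 scale, B-ALL environment over PBS control. Most genes hardly differed. Of 7007 genes that averaged 20 CPM or more over both groups and had no part in the rule, 25 were at least 2-fold higher in the B-ALL environment (0.357%) and 36 were at least 2-fold lower (0.514%). The median log2 fold was -0.01, 48.6% of genes were above 0 and 95.3% lay within 0.5 of 0. Counts of listed genes are to be read against those shares. Called below means past this 2-fold limit.

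Ifitm1, an interferon-induced membrane protein that is also abundant in stem cells, led the higher genes. It stood at 3054 CPM in members of the B-ALL environment and 442 CPM in members of the PBS control, a log2 fold of 2.79 (2.73 to 2.84). Nearly every member of the B-ALL environment held it: after each cell was thinned to 3070 UMIs, 98.4% of members of the B-ALL environment and 64.0% of the PBS control had a UMI. Before thinning, 100% of B-ALL and 87.8% of PBS members had one. Mycn, a MYC family transcription factor, was at 67.9 CPM in B-ALL and 11.9 CPM in PBS members, a log2 fold of 2.51 (2.16 to 2.87), and was found in 18.8% of thinned members of the B-ALL environment and 4.52% of the PBS control. The calcium-binding proteins S100a4 and S100a6 were both called. S100a4 was at 36.6 CPM in B-ALL and 8.12 CPM in PBS members (log2 fold 2.17), and S100a6 at 59.0 CPM in B-ALL and 20.1 CPM in PBS members (1.56). Ffar2, a receptor for short-chain fatty acids, was at 128 CPM in the B-ALL environment and 40.3 CPM in the PBS control (1.67). Among the other higher genes, Slc39a1, a zinc transporter, was at 77.9 CPM in B-ALL and 30.9 CPM in PBS members (1.33), and Wfdc17, a secreted protein of myeloid cells, at 148 CPM in B-ALL and 55.9 CPM in PBS members (1.40).

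The lower genes were mostly of another kind. Histone genes took 7 of the 10 lowest places and are described with the cell cycle. AY036118, a non-coding locus, was the lowest of all at 90.5 CPM in the B-ALL environment and 655 CPM in the PBS control, a log2 fold of -2.85. Ccnd1 encodes cyclin D1, which drives entry into the cell cycle, and was at 8.77 CPM in B-ALL and 45.0 CPM in PBS members (-2.36). It was detected in 2.22% of thinned members of the B-ALL environment and 12.2% of the PBS control. Tsix was at 105 CPM in B-ALL and 387 CPM in PBS members (-1.88), while Xist, which lies on the opposite strand of the same locus, was at 2756 CPM in B-ALL and 2695 CPM in PBS members (0.03). How reads on the opposite strand were counted is not given in the sources used here, so reads of these genes cannot be told apart. Hmga2, a chromatin protein of fetal and young progenitors, was at 26.6 CPM in B-ALL and 57.1 CPM in PBS members (-1.11), and Itgal, the alpha chain of the integrin LFA-1, had 177 UMIs in B-ALL and 314 in PBS members (-1.21).

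**Figure D2:**
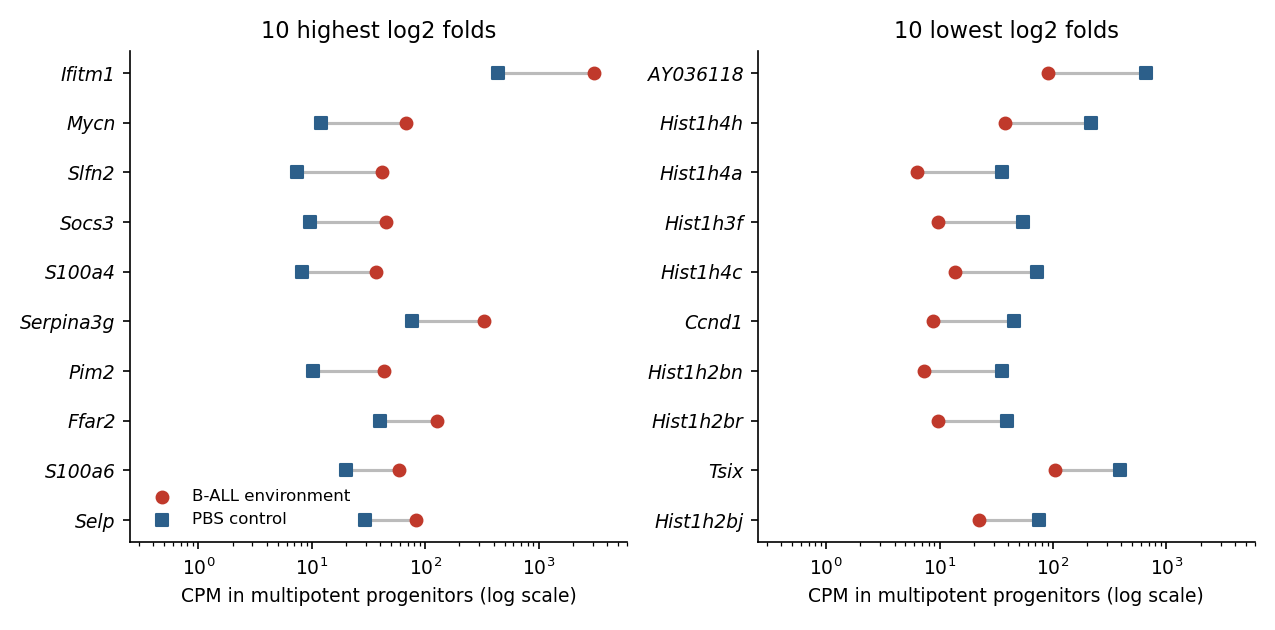
Level in CPM (log scale) of the 10 genes with the highest and the 10 with the lowest log2 fold, in members of the B-ALL environment (circles) and of the PBS control (squares), 1 summed sample each. Ifitm1 stands at 3054 CPM in B-ALL and 442 CPM in PBS members, and 7 of the 10 lowest genes are histone genes.

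Some feedback genes of JAK-STAT signalling had large folds, while other feedback genes, the kinases and the STAT factors stayed short of 2-fold. Of 33 genes listed, 19 were measured above the minimum, 3 were at least 2-fold higher and none was 2-fold lower, and their median log2 fold was 0.05 against -0.01 over all genes counted. Socs3 encodes a protein that binds and inhibits JAK kinases and is itself induced by STAT3. It was at 45.0 CPM in members of the B-ALL environment and 9.55 CPM in the PBS control, a log2 fold of 2.23 (1.84 to 2.65), with a UMI in 230 of 767 B-ALL and 54 of 663 PBS members. Pim2 and Pim1 encode serine/threonine kinases that promote survival and are induced by STAT factors. Pim2 was at 43.0 CPM in B-ALL and 10.2 CPM in PBS members (2.08), and Pim1, already abundant in the PBS control, at 1056 CPM in B-ALL and 522 CPM in PBS members (1.02). Pim1 lay just past 2-fold and fell short of it under 7 of 18 alternatives. Of the signal carriers, Stat3 was at 127 CPM in B-ALL and 101 CPM in PBS members (0.33), and Stat5b at 45.1 CPM in B-ALL and 64.3 CPM in PBS members (-0.51), both short of 2-fold. Other inhibitors of the pathway hardly differed: Socs4 had 435 UMIs in B-ALL and 314 in PBS members (0.08), Socs6 was at 31.2 CPM in B-ALL and 31.0 CPM in PBS members (0.01), and Pias1 at 44.6 CPM in B-ALL and 45.0 CPM in PBS members (-0.01). Under the minimum of 20 CPM, Socs5 (-0.13), Socs7 (-0.04) and Sh2b3 (0.05) had log2 folds whose intervals included 0. Some further feedback genes stood under the minimum of 20 CPM and were chosen after their values were seen. Socs2 had 272 UMIs in members of the B-ALL environment and 7 in the PBS control, a log2 fold of 4.89 (3.83 to 6.22), spread over 160 B-ALL and 7 PBS members. Cish had 187 UMIs in B-ALL and 33 in PBS members (2.12), and Socs1 220 UMIs in B-ALL and 48 in PBS members (1.81). In the other cells the log2 folds were 3.14 for Socs3, 3.19 for Pim2, 1.68 for Pim1, 5.0 for Socs2 and 3.67 for Cish.

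The promoters of Socs3, Socs1, Pim1, Pim2, Cish and of the genes past 2-fold were searched for the gamma-activated site bound by STAT dimers, TTCNNNGAA, and for the core of the interferon-stimulated response element, GAAANNGAAA, on both strands of the 250 bases before the RefSeq start (GRCm38.p6). The first motif was in 7.02% and the second in 2.98% of all 32851 RefSeq promoter windows of that length. Of the 25 genes at least 2-fold higher, 21 had a promoter window, and 4 of these held the first motif (Emilin2, Ltb, Serpina3g and Socs3) and 1 the second (Emilin2). Of the 36 genes at least 2-fold lower, 7 had a window and none held either motif. A gene with several windows was counted if any of them matched, so these counts of genes differ in unit from the shares of windows. The sequences of Socs3, Serpina3g and Ifitm1 are shown because the first and the second hold a match and the third, which has the largest fold among the genes counted as higher, holds none. Capitals mark the match, and the bases printed end before both the RefSeq and the nearest GENCODE start.
Socs3, chr11:117969452-117969616, minus strand: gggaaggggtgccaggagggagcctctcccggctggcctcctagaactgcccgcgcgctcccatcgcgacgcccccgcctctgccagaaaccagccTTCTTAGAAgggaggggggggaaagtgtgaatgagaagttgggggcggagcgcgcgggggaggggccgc
Serpina3g, chr12:104235897-104236146, plus strand: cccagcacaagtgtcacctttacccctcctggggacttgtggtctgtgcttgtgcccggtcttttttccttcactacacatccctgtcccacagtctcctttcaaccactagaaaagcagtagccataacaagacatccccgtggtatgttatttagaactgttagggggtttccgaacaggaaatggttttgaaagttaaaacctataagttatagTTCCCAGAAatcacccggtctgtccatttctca
Ifitm1, chr7:140967826-140968039, plus strand: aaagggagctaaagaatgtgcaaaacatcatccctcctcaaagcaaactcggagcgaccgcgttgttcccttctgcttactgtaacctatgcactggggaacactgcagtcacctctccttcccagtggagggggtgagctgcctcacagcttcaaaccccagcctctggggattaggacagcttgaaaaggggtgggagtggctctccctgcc
In Socs3 the match TTCTTAGAA spans bases -154 to -146 from the start, and in Serpina3g the match TTCCCAGAA spans bases -33 to -25. Socs1 held no match to the first motif and overlapping matches to the second, GAAAGAGAAA at bases -83 to -74 and GAAACCGAAA at bases -77 to -68. All these positions are counted from the RefSeq start. On that scale the nearest GENCODE start lies at base 98 for Serpina3g and base -85 for Socs3, so distances from it differ. The promoter of Socs2 was not used here. Neither motif was found in the windows of Pim1, Pim2, Cish, Mycn, Slfn2 or Ifitm1. A match in a sequence is no evidence of binding in these cells, and a window without one says only that these letters are not in it.

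The genes listed for interferon responses showed no common direction in members, and 1 gene of each list stood far from the rest. Ifitm1, interferon-induced and given above at a log2 fold of 2.79, was listed with the stem cell genes and is in neither list. Of 36 genes listed for interferon gamma, 18 were counted, 1 was at least 2-fold higher and none lower, with 9 above and 9 below 0 and a median log2 fold of 0.00. That gene was Serpina3g, a serine protease inhibitor of activated hematopoietic cells. It stood at 327 CPM in members of the B-ALL environment and 75.8 CPM in the PBS control, a log2 fold of 2.11 (1.97 to 2.25), and in 57.9% of thinned B-ALL and 20.5% of thinned PBS members. Of 40 type I interferon genes, 15 were counted and 1 was 2-fold higher, with a median of -0.02. That gene was Slfn2, a Schlafen family protein needed for T cell quiescence, at 41.5 CPM in B-ALL and 7.48 CPM in PBS members (2.47, 2.03 to 2.95). Classical responders gave other values: Isg15, a ubiquitin-like protein, had 147 UMIs in B-ALL and 105 in PBS members (0.10), Ly6e was at 1093 CPM in B-ALL and 832 CPM in PBS members (0.39), and Gbp7, a guanylate-binding protein, at 92.6 CPM in B-ALL and 72.7 CPM in PBS members (0.35). Tap2, a peptide transporter for MHC class I, was at 133 CPM in the B-ALL environment and 213 CPM in the PBS control (-0.68). Of 21 genes of MHC class I presentation counted, none was called and 14 were below 0, with a median of -0.09. The per-cell share of UMIs in the interferon gamma list was 0.480% in the median member of the B-ALL environment and 0.444% in the PBS control.

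Genes of the stem cell program that the rule did not use leaned higher in the B-ALL environment. Of 32 listed, 14 were counted, 4 were at least 2-fold higher, none was lower and 11 lay above 0, with a median log2 fold of 0.49. Ifitm1, which is also interferon-induced, and Mycn, both given above, were the first and second. Nkx2-3, a homeobox factor, was at 34.0 CPM in members of the B-ALL environment and 15.8 CPM in the PBS control (1.11). Its log2 fold was 0.50 in members thinned to the depth floor, and 1.62, 0.88 and 0.78 in members with no, 1 and 2 of the rule's stem genes, short of 2-fold in all but one of these. Ifitm3, a neighbour of Ifitm1, was at 965 CPM in B-ALL and 551 CPM in PBS members (0.81). Angpt1, a ligand of the TIE2 receptor, went the other way with 210 CPM in B-ALL and 324 CPM in PBS members (-0.62). Members with 2 of the rule's own stem genes were more frequent in the B-ALL environment, as given above. Within strata of the number of stem genes detected, a comparison chosen after seeing the data, Mycn had log2 folds of 3.67 with none, 1.77 with 1 and 2.49 with 2 of them. Ifitm1 had 2.82, 2.81 and 2.68, and Serpina3g 2.03, 2.02 and 2.13, close to the same in all 3. Socs3 had 2.53, 2.36 and 1.82, and Pim1 1.37, 1.01 and 0.74.

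Genes of multipotent progenitors themselves hardly differed. Of 20 listed, 19 were counted and none was called, with 11 above and 8 below 0 and a median of 0.10. Flt3 was at 78.5 CPM in members of the B-ALL environment and 86.7 CPM in the PBS control, a log2 fold of -0.14 whose interval (-0.31 to 0.02) included 0. Cd48 was at 305 CPM in B-ALL and 261 CPM in PBS members (0.23), and Cd27 at 239 CPM in B-ALL and 219 CPM in PBS members (0.13). Il12a, a cytokine subunit, had the largest fold of the list at 23.9 CPM in B-ALL and 39.3 CPM in PBS members (-0.72). Of the markers in the label, Vldlr had a log2 fold of 0.78 (0.56 to 1.01) and Tespa1 -0.36 (-0.47 to -0.24). Neither reached 2-fold. The fold of Vldlr ranged from 1.38 in members with no stem gene to 0.28 in members with 2.

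Of 40 cytokine receptor genes listed, 25 were counted, 3 were at least 2-fold higher and none was 2-fold lower, with 12 above and 13 below 0 and a median of -0.07. Csf2rb, the beta chain shared by the receptors for IL-3, GM-CSF and IL-5, was at 98.2 CPM in members of the B-ALL environment and 37.1 CPM in the PBS control, a log2 fold of 1.40 (1.19 to 1.62). Its near copy Csf2rb2, the mouse chain specific to IL-3, had 98 UMIs in B-ALL and 15 in PBS members (2.32), and counting could split reads between them. Il4ra, the IL-4 receptor chain, was at 40.2 CPM in B-ALL and 17.2 CPM in PBS members (1.23). Il1r1, the IL-1 receptor, reached 28.8 CPM in B-ALL and 14.6 CPM in PBS members (0.97), just under the limit. Kit, whose protein was used in the sort, was at 252 CPM in the B-ALL environment and 437 CPM in the PBS control (-0.79, -0.88 to -0.71), and in 51.5% of thinned B-ALL and 73.5% of thinned PBS members. Its fold in all other cells was -0.86.

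Granulocyte-monocyte genes differed unevenly between the groups. Of 27 listed, 24 were counted, 1 was at least 2-fold lower and none higher, with 14 below and 10 above 0 and a median of -0.21. The called gene, Ly6c2 of monocytic cells, was at 24.5 CPM in members of the B-ALL environment and 52.0 CPM in the PBS control (-1.09). It fell short of 2-fold under 6 of 18 alternatives, down to -0.55 in members with no stem gene, and 75 of the 201 UMIs of B-ALL members and 96 of the 327 UMIs of PBS members lay in 5 members each. Ctsg, cathepsin G, was at 919 CPM in B-ALL and 1746 CPM in PBS members (-0.93), and Mpo, myeloperoxidase, at 1689 CPM in B-ALL and 2375 CPM in PBS members (-0.49). Other granule genes went the other way: Prtn3, proteinase 3, was at 3302 CPM in B-ALL and 2766 CPM in PBS members (0.26), and Elane, neutrophil elastase, at 635 CPM in B-ALL and 553 CPM in PBS members (0.20). So the granule genes did not move together. Elane also showed that levels and numbers of cells can part: 325 of 767 members of the B-ALL environment held its 5210 UMIs, and 446 of 663 members of the PBS control its 3472 UMIs, so no order is read from its share.

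Free RNA can give UMIs of an abundant transcript in cells that do not express it, so the shares of members are given beside those of cells that should lack granule genes. After thinning, Mpo was found in 68.7% of members of the B-ALL environment and 89.6% of the PBS control, Ctsg in 53.2% of B-ALL and 79.3% of PBS members, and Elane in 29.5% of B-ALL and 44.6% of PBS members. In erythroid cells with at least 2 UMIs of Klf1, a reference chosen after seeing the data, Mpo was found in 10.8% in the B-ALL environment and 35.6% in the PBS control, Ctsg in 8.66% in the B-ALL environment and 35.5% in the PBS control, and Elane in 6.14% in the B-ALL environment and 22.5% in the PBS control. The erythroid cells, 277 in the B-ALL environment and 908 in the PBS control, had median depths of 15309 UMIs in the B-ALL environment and 12371 in the PBS control before thinning. The level in cells that should lack these genes was thus higher in the PBS control, in the direction of the difference between members, and its part in that difference was not tested. In either group the members stood above it. Members with no UMI of Flt3, of Mpo, Elane or Ctsg, or of Gata2, Itga2b or Gata1 after thinning were 10.7% in the B-ALL environment (8.59 to 13.1%) and 1.51% in the PBS control (0.726 to 2.76%). Those with only the granule genes were 40.5% of B-ALL and 50.4% of PBS members. Those with granule and Gata2, Itga2b or Gata1 transcripts but no Flt3 were 18.9% of B-ALL and 25.5% of PBS members.

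**Figure D3:**
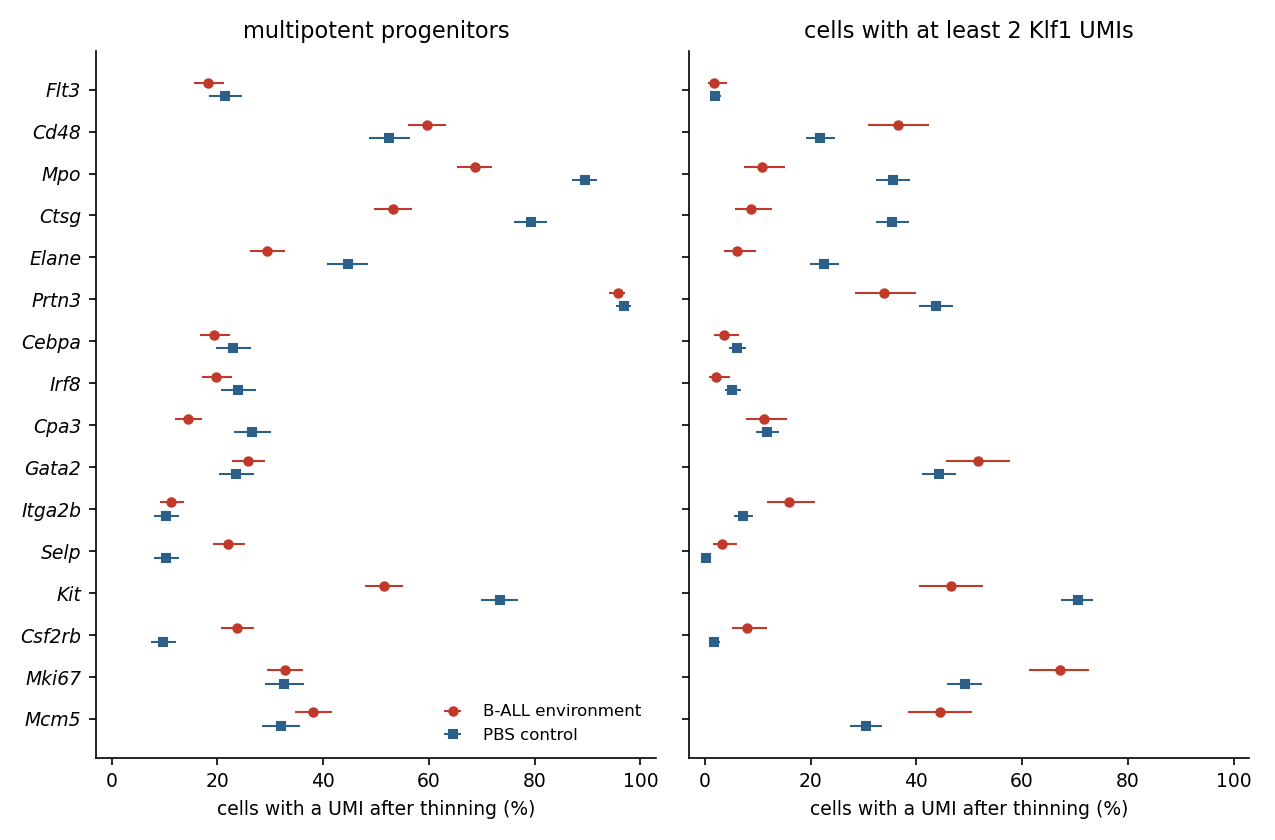
Share of cells with at least 1 UMI of each gene after thinning every cell to 3070 UMIs, in members (left panel) and in cells with at least 2 Klf1 UMIs (right panel), for the B-ALL environment (circles) and the PBS control (squares), with exact 95% intervals for counting error. Mpo is found in 68.7% of B-ALL and 89.6% of PBS members, and in 10.8% of the Klf1 cells of the B-ALL environment and 35.6% of those of the PBS control.

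Other lineages gave smaller counts. Of 27 erythroid-megakaryocyte genes, 14 were counted and 2 were at least 2-fold higher, with a median of 0.11. Selp was at 82.6 CPM in members of the B-ALL environment and 29.4 CPM in the PBS control (1.49, 1.25 to 1.73), and the other gene was a globin. Hbb-bt, a beta-globin chain with a near-identical copy between which counting could split reads, was at 53 CPM in B-ALL and 20.5 CPM in PBS members (1.37), but at -0.19 in members with no stem gene, and its copy Hbb-bs was found in 2.09% of thinned B-ALL and 4.68% of thinned PBS members. Gata2, a factor of stem, mast and early erythroid cells, was at 121 CPM in B-ALL and 99 CPM in PBS members (0.29). Of 25 lymphoid genes, 9 were counted and 1 was called, with a median of 0.36. That was Ltb, lymphotoxin beta, at 55.4 CPM in B-ALL and 25.9 CPM in PBS members (1.10), with log2 folds of 1.94, 1.47 and 0.44 in members with no, 1 and 2 stem genes. Il7r, the IL-7 receptor of lymphoid progenitors, had 3 UMIs in the B-ALL environment and 2 in the PBS control, too few to compare. All 3 basophil and mast cell genes counted were below 0, and Cpa3, a mast cell protease, was called at 94 CPM in B-ALL and 254 CPM in PBS members (-1.43, -1.56 to -1.31). It was found in 14.5% of thinned members of the B-ALL environment and 26.5% of the PBS control, and in 11.2% of Klf1 cells of the B-ALL environment and 11.7% of the PBS control.

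Lists of mature cell markers gave the following sums. Of 14 B cell markers, 6 were in the matrix and summed to 106 CPM in members of the B-ALL environment and 115 CPM in the PBS control. Of those, only Ighm (49.5 CPM in B-ALL and 66.1 CPM in PBS members) and Cd79b (52.5 CPM in B-ALL and 46.2 CPM in PBS members) passed the minimum. The 6 T and NK cell markers in the matrix summed to 252 CPM in B-ALL and 312 CPM in PBS members, nearly all of it Nkg7, which myeloid progenitors also express, at 247 CPM in B-ALL and 310 CPM in PBS members. The 10 dendritic cell markers in the matrix summed to 637 CPM in B-ALL and 665 CPM in PBS members. Most of that came from genes that progenitors express too: Bst2 at 197 CPM in B-ALL and 207 CPM in PBS members, Tcf4 at 174 CPM in B-ALL and 161 CPM in PBS members, Irf8 at 124 CPM in B-ALL and 137 CPM in PBS members, and Flt3, given above. Itgax, which encodes CD11c, was at 0.24 CPM in B-ALL and 0.80 CPM in PBS members. The 10 macrophage markers summed to 50.1 CPM in B-ALL and 35.5 CPM in PBS members.

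Among hematopoietic transcription factors, 24 of 38 were counted and none was called. Cebpb, a factor of emergency granulopoiesis, came closest at 128 CPM in the B-ALL environment and 67.5 CPM in the PBS control (0.93). Runx1 was at 281 CPM in B-ALL and 224 CPM in PBS members (0.33) and Spi1, which encodes PU.1, at 265 CPM in B-ALL and 259 CPM in PBS members (0.04). Targets of TNF and NF-kB leaned up with no call: 11 of 14 were above 0 with a median of 0.18, led by Ier3, an early response gene, at 89.2 CPM in B-ALL and 52.0 CPM in PBS members (0.78). Of 21 adhesion and homing genes, Selp was higher and Itgal lower. Cd93, a C-type lectin receptor of early progenitors, was at 88.7 CPM in B-ALL and 163 CPM in PBS members (-0.88), and Cxcr4, the receptor that holds progenitors in the marrow, at 83.5 CPM in B-ALL and 57.1 CPM in PBS members (0.55).

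Cell cycle genes were close to even between the groups, apart from cyclin D1 and the histones. Of 43 S phase genes counted, 31 were above 0 and none was called, with a median of 0.12. Rrm2, a subunit of ribonucleotide reductase, was at 113 CPM in members of the B-ALL environment and 75.3 CPM in the PBS control (0.59). Of 48 G2/M genes, 29 were below 0 and none was called, with a median of -0.05. Mki67, the proliferation marker, was in 32.7% of thinned B-ALL and 32.6% of thinned PBS members. Top2a, a topoisomerase of dividing cells, was in 46.5% of B-ALL and 52.2% of PBS members, and Mcm5, a helicase subunit, in 38.1% of B-ALL and 32% of PBS members. S phase genes took 0.641% of UMIs in the median member of the B-ALL environment and 0.578% in the PBS control, and G2/M genes 0.419% in the B-ALL environment and 0.456% in the PBS control. Of 15 G1 regulators counted, Ccnd1 was the only call, with a median of 0.04 for the list, Ccnd3 was at 173 CPM in B-ALL and 117 CPM in PBS members (0.56) and Cdkn1a, the inhibitor p21, at 42.3 CPM in B-ALL and 25.3 CPM in PBS members (0.74).

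Against this, the replication-dependent histone genes that passed the minimum were all lower. The list was chosen after their values were seen, and their near-identical copies can split reads. Of 60, 31 were counted, all 31 were below 0 and 21 were at least 2-fold lower, with a median of -1.31. They summed to 2867 CPM in members of the B-ALL environment and 6076 CPM in the PBS control. Hist1h4h was at 37.8 CPM in B-ALL and 215 CPM in PBS members (-2.51) and Hist1h2ap at 451 CPM in B-ALL and 915 CPM in PBS members (-1.02). Slbp, which binds the stem-loop that ends these mRNAs, was at 295 CPM in B-ALL and 208 CPM in PBS members (0.51). The same 31 genes had a median of -1.22 in the other cells, -1.47 in cells with Dntt and Flt3, -1.32 in cells with Cebpa and Ccl9 and -0.55 in the stem gene-rich cells that the rule left out. Most histone mRNAs of this kind lack the poly(A) tail that the 3′ kit captures.

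Transcripts of mitochondria and of ribosomal RNA loci also differed. Of 13 mitochondrially encoded genes, 11 were above 0, with a median of 0.42. They took 5.72% of UMIs in the median member of the B-ALL environment and 3.69% in the PBS control. mt-Co3, a cytochrome oxidase subunit, was at 10810 CPM in B-ALL and 6039 CPM in PBS members (0.84) and mt-Cytb at 7062 CPM in B-ALL and 3942 CPM in PBS members (0.84). mt-Nd6, encoded on the other strand, was called lower at 53.4 CPM in B-ALL and 109 CPM in PBS members (-1.03), and mt-Atp8 was at 86.9 CPM in B-ALL and 165 CPM in PBS members (-0.92). The nuclear genes of the same respiratory chain leaned the other way: 63 of 75 were below 0, with a median of -0.19, and none was called. Cox7b was at 395 CPM in B-ALL and 603 CPM in PBS members (-0.61). Gm42418, a locus that overlaps ribosomal RNA sequence, was at 814 CPM in B-ALL and 1711 CPM in PBS members (-1.07), Lars2, a mitochondrial leucyl-tRNA synthetase, at 25.2 CPM in B-ALL and 71.5 CPM in PBS members (-1.50), and Neat1, a nuclear non-coding RNA, at 47.2 CPM in B-ALL and 99.6 CPM in PBS members (-1.08). Such loci and the mitochondrial share are often read as signs of RNA or cell quality. In the other cells the mitochondrial list had a median of 0.33, AY036118 a log2 fold of -2.71 and Gm42418 -1.06. What part these had in the folds of other genes was not tested.

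Metabolic programs differed little. Of 15 cholesterol synthesis genes counted, 12 were above 0 and none was called, with a median of 0.24. Acat2 was at 40.3 CPM in members of the B-ALL environment and 23.1 CPM in the PBS control (0.81). Of 16 glycolysis genes, 9 were above 0 with a median of 0.13, led by Ldhb at 58.5 CPM in B-ALL and 35.0 CPM in PBS members (0.74). The 30 ribosome biogenesis genes split evenly, 15 above and 15 below 0, with a median of 0.00.

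**Figure D4:**
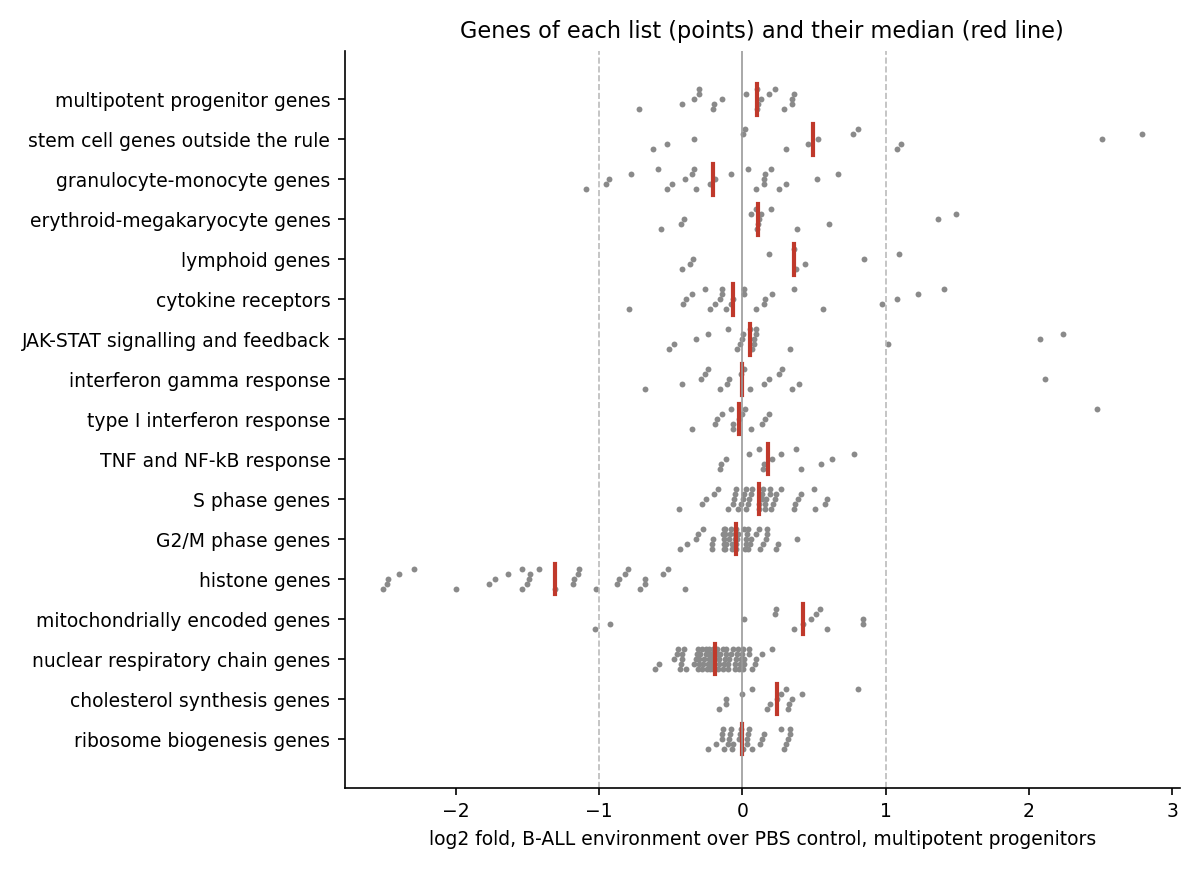
Log2 fold, B-ALL environment over PBS control, of each counted gene (points) in the main gene lists and the median of the list (red line), in multipotent progenitors, with dashed lines at 2-fold. Histone genes lie below 0 throughout with a median of -1.31, while most other lists centre near 0 and a few genes such as Ifitm1 at 2.79 stand apart from their lists.

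The same folds were then taken in 3 sets of cells like the members and in all other cells, as description. The sets were stem gene-rich cells (the rule with 3 or more stem genes, 721 cells of the B-ALL environment and 118 of the PBS control), cells with Dntt and Flt3 (310 in the B-ALL environment and 312 in the PBS control) and cells with Cebpa and Ccl9 (590 in the B-ALL environment and 800 in the PBS control). The last set was not kept apart from the members, so members with both Cebpa and Ccl9 are also in it. The members of each group and these sets come from the same animals, so agreement between them is no independent support. Ifitm1 had log2 folds between 2.67 and 2.98 in all of them and 2.79 in members. Mycn had 2.37 in stem gene-rich cells, 2.45 in Dntt and Flt3 cells and 2.61 in Cebpa and Ccl9 cells, against 2.51 in members. Slfn2 spread widely, at 3.83, 0.84 and 1.28 in the same order, against 2.47 in members. Selp had 0.27, 2.21 and 1.69, against 1.49. Cpa3 had -2.23, -0.40 and -0.96, against -1.43. Csf2rb was at 0.42 in stem gene-rich cells (-0.05 to 0.93), and the interval in members, 1.19 to 1.62, did not overlap it. Several genes had larger folds in the other cells than in members. Serpina3g had 3.28 there (3.22 to 3.34) against 2.11 in members, and Nkx2-3 had 2.64 against 1.11. Ltb had 2.83 against 1.10. None of these differences between sets could be tested over samples, and which cells make up the other cells differs between the groups.

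**Figure D5:**
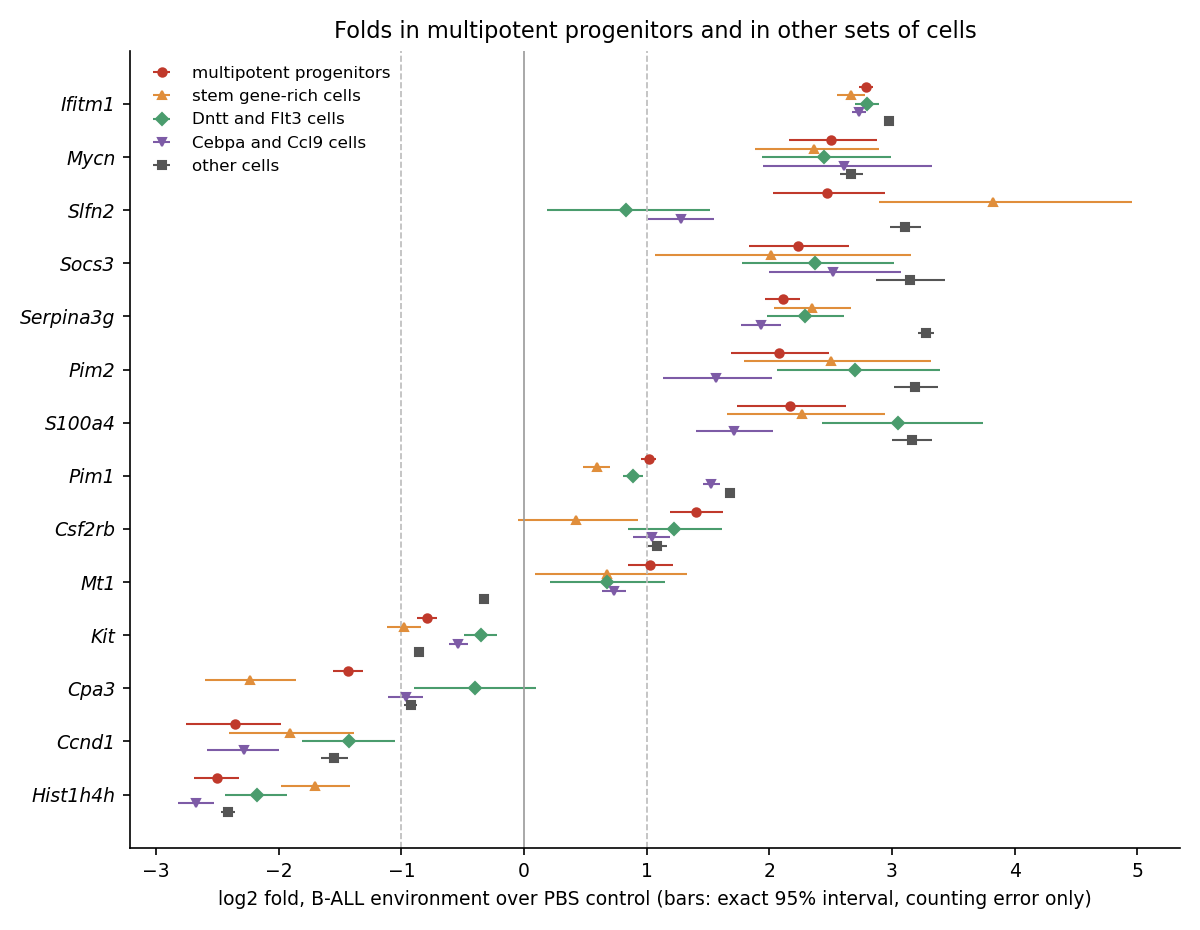
Log2 fold, B-ALL environment over PBS control, of 14 genes in multipotent progenitors and in 4 other sets of cells, with exact 95% intervals for counting error and dashed lines at 2-fold. Members with both Cebpa and Ccl9 are also in the set of that name. Ifitm1 and Mycn lie close together in all sets, while Serpina3g has 3.28 in the other cells against 2.11 in multipotent progenitors, and Mt1 lies on opposite sides of 0.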

How the data were processed

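Host bone marrow cells of 4 labelled samples, 2 per group, were measured by droplet RNA sequencing. The submitters' processing notes name Cell Ranger 4, Seurat 4.0.1 and the mm10 assembly. The authors deposited raw UMI counts per gene and cell, with no normalization, 13978 genes by 11764 cells. The authors' cell table gives, per cell, the group prefix and other totals of UMIs and genes, and UMAP scores (coordinates) that were used as deposited. How cells and genes were filtered is not given in the sources used here. No replicate number is attached to the cells, which left 1 sample in each group, and the prefix tm was taken to mean the tumor environment.

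Members were chosen by UMI counts as described, and the members and gene lists were chosen with earlier results of these data known. Counts were summed per group and scaled by TMM factors (edgeR 4.0.16), and log2 folds got exact conditional (Clopper-Pearson) 95% intervals. Genes outside the rule that averaged 20 CPM or more were counted, and called at 2-fold. The named genes were the 10 highest and 10 lowest folds, the 4 largest absolute folds of each list, and the 10 highest over other cells. Other genes named for their role, such as Stat3, Isg15 or Mki67, were chosen with their values known, and a few genes the rule names are not reported here. On simulated counts with known folds, drawn with the same counting error that the intervals assume, intervals and folds were recovered. That draw had no cells, no spread between mice and no TMM step, so it checks only the calculation. Shares of cells with a UMI were taken after thinning to 3070 UMIs with a fixed seed and cover counting error only. Those of Cebpa and of the rule's stem genes, those given as before thinning and the numbers of members with a UMI are on counts as deposited. They are thus not matched for depth. Of lists, markers of dendritic cells (5 counted, median -0.14), erythrocytes (2 counted, 0.71), MHC class II (3 counted, -0.31), immediate early genes (11 counted, -0.06), p53 targets (10 counted, 0.09), lipoprotein receptors (7 counted, -0.01), adhesion G protein-coupled receptors (3 counted, -0.30) and MAP kinase feedback (1 counted, -0.33) gave no call, Hbb-bt aside. Doublets were scored with Scrublet in scanpy 1.11.5. 3′ UMI counts carry no gene length, and levels were not compared between genes.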

Additional observations from a re-analysis of the deposited data

Results flagged for a closer look

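Mt1, a metallothionein that binds zinc and copper, had a log2 fold of 1.03 in multipotent progenitors and -0.32 in the other cells, so it lay on opposite sides of 0. It was at 107 CPM in members of the B-ALL environment and 52.2 CPM in members of the PBS control. The difference between the sets was not tested, since each group was 1 sample. In stem gene-rich, Dntt and Flt3, and Cebpa and Ccl9 cells the log2 folds were 0.68, 0.68 and 0.73. Its UMIs lay in 322 of 767 members of the B-ALL environment and 181 of 663 of the PBS control.

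Below the depth floor, 14 cells of the B-ALL environment met all other conditions of the rule, and the PBS control had no cell that shallow. These cells entered no comparison.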

How the results depend on the processing

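No paired analysis was possible because the cells carry no replicate number. For the same reason edgeR's quasi-likelihood test, the Wald test of DESeq2, leaving out each replicate and the replicate block were not run. Of 61 genes past 2-fold, 60 kept their sign in every alternative run, and Hbb-bt did not, at -0.19 in members with no stem gene. In size, 31 of the 61 stayed past 2-fold in all 18 alternatives and 30 fell short in at least 1. Those named above, with the value farthest towards 0, were Csf2rb (0.97), Emilin2 (0.85), Wfdc17 (0.81), Il4ra (0.89), Ltb (0.44), Mt1 (0.56), Hmga2 (-0.89), Itgal (-0.69), Hist1h2ap (-0.76), mt-Nd6 (-0.78), Gm42418 (-0.95) and Neat1 (-0.99), beside Pim1, Ly6c2, Nkx2-3 and Hbb-bt. Of 1278 recomputed gene folds, 1046 stayed within the interval of the value given, 231 moved past it and 1 reversed. The cause of moves was not tested, except where fewer genes or cells entered by construction. Genes at least 2-fold higher and lower numbered 113 and 89 at a minimum of 5 CPM, 9 and 15 at 50 CPM, and 726 and 650 with no minimum, where few UMIs decide folds. The number of genes that enter changes with the setting, so these counts and those that follow cannot be set against the shares given above. Without histone genes 15 were lower. Without the stem gene condition 57 were higher, and 48 of the 61 stayed past 2-fold. In members with no stem gene 47 were higher and 55 lower, and in members with 2 of them 47 of the 61 stayed past 2-fold. The share of cells that were members in the B-ALL environment was 11.5% with the rule applied to thinned cells, 15.7% with Cd34 of at least 1 UMI, 9.54% with at least 4, 11.7% with Adgrl4 of at least 2, 7.78% with fewer than 2 stem genes and 26.1% without that condition. In the PBS control it was 10.5% with the rule applied to thinned cells, 12.1% with Cd34 of at least 1 UMI and 8.86% with at least 4. It was 10.0% with Adgrl4 of at least 2, 7.80% with fewer than 2 stem genes and 13.3% without that condition. So the order of the groups turned with fewer than 2 stem genes, by less than the counting error. With the rule applied to thinned cells the intervals overlapped, at 10.7 to 12.4% in the B-ALL environment and 9.77 to 11.4% in the PBS control. Of 522 recomputed list medians, 80 moved by 0.1 or more. With 1 sample per group, depth sets the counting error, and it also bears on which cells meet the rule. With the rule applied to thinned cells, 53 of the 61 stayed past 2-fold, and with members thinned to the depth floor 52 did.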

Other observations

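Some genes had no UMI in members of the PBS control, and were chosen after their values were seen. Bounds are set against 3 UMIs over the group of members of the PBS control. Meg3, a maternally expressed non-coding RNA, had 74 UMIs in members of the B-ALL environment and 0 in the PBS control, at least 18.9-fold higher, in 22 members of which the highest held 10. Rian, from the same imprinted locus, had 13 UMIs in B-ALL and 0 in PBS members, at least 3.32-fold higher. Ikzf4, a zinc finger factor of the Ikaros family, had 62 UMIs in B-ALL and 0 in PBS members, at least 15.8-fold higher, spread over 51 members with at most 3 each. Gzmb, the cytotoxic protease granzyme B, had 58 UMIs in B-ALL and 0 in PBS members, at least 14.8-fold higher, but in only 9 members, of which 1 held 26. C1qc, a complement gene of macrophages, had 16 UMIs in 9 B-ALL members and 0 in PBS members.

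The higher genes that follow averaged under the minimum of 20 CPM and were chosen for their rises after their values were seen. Other genes under the minimum were lower. Car1 had 20 UMIs in B-ALL and 120 in PBS members, and Dusp6 17 in B-ALL and 85 in PBS members. Podxl, a sialomucin related to Cd34, had 81 UMIs in members of the B-ALL environment and 6 in the PBS control, a log2 fold of 3.37 (2.18 to 4.86), in 52 B-ALL and 6 PBS members. Esam, an adhesion molecule of stem cells and endothelium, had 164 UMIs in B-ALL and 41 in PBS members (1.61). Id1, an inhibitor of basic helix-loop-helix factors, had 223 UMIs in B-ALL and 50 in PBS members (1.77), spread over 156 B-ALL and 44 PBS members. Bcl3, an atypical IkB protein, had 204 UMIs in B-ALL and 59 in PBS members (1.40). In the other cells the log2 folds were 5.51 for Podxl, 2.68 for Esam, 1.80 for Id1 and 2.34 for Bcl3.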
